A study of Mus musculus with 8 samples.

Results

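Of the 8 RNA sequencing libraries of the series, the 3 labelled wild type (WT) are described here on their own, as a picture of what old back skin epidermis holds. They were taken by their genotype label, and no measured value entered the choice. Each was made from total RNA of epidermis separated from the back skin of mice at 22 months of age, with keratinocytes given as the cell type. The other 5 libraries carry the genotype Tgfa KO at the same age and in the same tissue, and they enter no value below. No young group is among the 8 libraries, so nothing here measures a change with age. The labels do not say that the 3 libraries came from separate animals, and the spread between them may therefore be partly technical.

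The epidermis renews itself from a basal layer of keratinocytes that divide on the basement membrane and make keratins 5 and 14. Cells that leave this layer become spinous cells, which make keratins 1 and 10, then granular cells, which make filaggrin and loricrin, and end as the dead, cross-linked squames of the cornified layer. Hair follicles and sebaceous glands are continuous with this sheet, and Langerhans cells, gamma delta T cells and melanocytes live within it.

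Total counts were 18292303, 15170544 and 12968728 in WT replicates 1, 2 and 3, and replicate 3 stood apart from the other libraries. Replicates 1 and 2 had a Pearson correlation of 0.973 over the log2 CPM (counts scaled to a common library total) of 7920 protein-coding genes, and 98.5% of these genes lay within 2-fold. Replicate 3 lay within 2-fold of replicate 1 for 79.2% of them and of replicate 2 for 79.9%. Malat1, a nuclear noncoding RNA, took 1.75%, 1.84% and 6.61% of counts, so its share was highest in replicate 3. Another measure did not follow this split: 1399 olfactory and vomeronasal receptor genes, whose products work chiefly in the nose, summed to 26.5, 223 and 521 CPM, and the predicted gene Gm10800 had 389, 9033 and 9618 CPM. Replicate 2 was thus close to replicate 3 in Gm10800 and close to replicate 1 in nearly all coding genes. Counts of the Y-linked gene Ddx3y were 1456, 1490 and 1106, and those of Xist, the RNA of the inactive X, were 8, 68 and 25. Because of replicate 3, values are given for each library, and those of replicates 1 and 2 stand for the description without it.

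The size of that difference was counted gene by gene. Among 8373 genes with a mean of at least 10 CPM, 339 genes (4.05%) were at least 2-fold above both other libraries in replicate 3, and 1044 genes (12.5%) were at least 2-fold below both. The same counts were 38 genes above (0.454%) and 34 below (0.406%) in replicate 1, and 19 above (0.227%) and 27 below (0.322%) in replicate 2. These shares are the background against which counts of list members are read below. The mean is over all 3 libraries, so a gene can pass through its level in replicate 3 alone, which favours calls above. This holds for the shares of all genes as well. With DESeq2 size factors as the scale, replicate 3 had 441 genes above and 859 below, which is 33.9% above among its calls against 24.5% with library totals. The median gene lay at a log2 ratio of -0.21 in replicate 3 against the mean of the other libraries with library totals, and at -0.09 with size factors. The biological coefficient of variation over the genes kept by the low-count filter was 36.7% with all 3 libraries (15104 genes) and 19.8% without replicate 3 (15936 genes). The part of Malat1, depth or stray receptor counts in the values of replicate 3 was not tested.

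**Figure D1:**
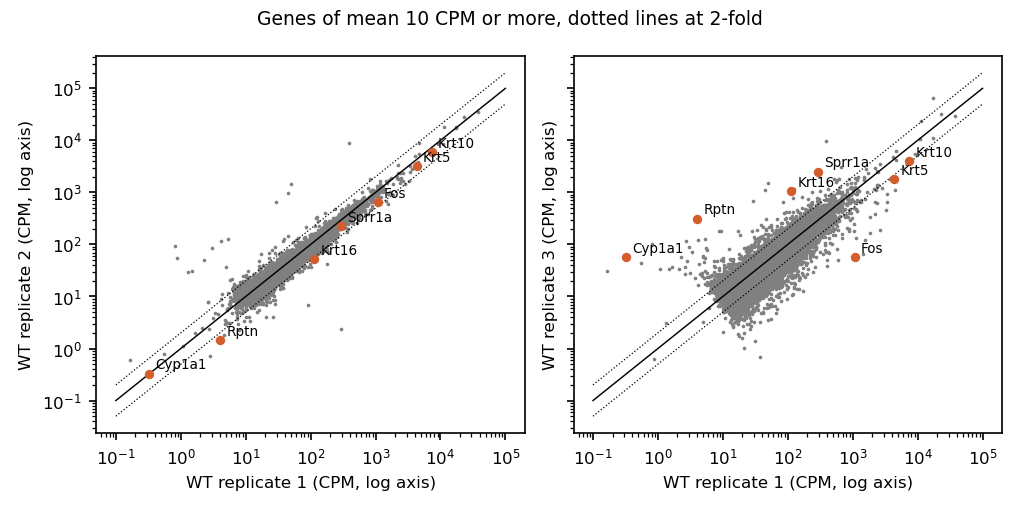
CPM of each gene with a mean of 10 CPM or more in WT replicate 2 (left) and WT replicate 3 (right) against WT replicate 1, on log axes, with a solid line at equality and dotted lines at 2-fold. Orange points are 7 named genes; the cloud of the right panel is wider, and Cyp1a1 and Rptn lie above its lines while Fos lies below.

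Of the 49315 genes in the files, 15062, 15781 and 18860 were at 1 CPM or more, of which 12154, 12759 and 14780 were protein-coding. Replicate 3 had the most such genes and the fewest counts, and it also had the highest receptor level, at 0.137 CPM per kb of exon against 0.00698 and 0.0588. Genes at 10 CPM or more numbered 8447, 8361 and 7956, so the order was reversed at this level. Protein-coding genes took 84.6% ± 3.48 of counts (SD, n = 3) and genes annotated as long intergenic noncoding RNAs 10.5% ± 2.75. The 10 most counted genes held 16.8% ± 2.77 of all counts, the top 100 held 30.1% ± 2.06 and the top 1000 held 59.3% ± 2.17.

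Noncoding RNAs led the counts, and keratinocyte structural genes were among the most counted protein-coding genes. By mean CPM the first gene was the predicted gene Gm26917, annotated as a long intergenic noncoding RNA, with 38217, 35626 and 29546 CPM. Gm42418, of the same type and beside it on chromosome 17, had 4631, 8774 and 4217. Both are counted in the share of long intergenic noncoding RNAs above, and which RNA their reads came from was not tested. Predicted names such as these are left out of the ranking that follows. Malat1 had 17490, 18394 and 66140 CPM, Neat1, the RNA scaffold of nuclear paraspeckles, 22645, 27884 and 31653, and Rn7sk, which restrains transcription elongation, 11265, 18048 and 23703. All 3 were highest in replicate 3. Ahnak, a giant scaffold protein of the cell cortex, had 17051, 17576 and 11043 CPM, and Dsp, the desmoplakin that ties keratin filaments to desmosomes, 9077, 8662 and 5580. Both of these were lowest in replicate 3. Counts favour long genes, so levels of different genes are compared as TPM, which divides by exon length before scaling to a common total. Between libraries, the TPM of a gene also falls where short RNAs take more of that total. Rn7sk had 98936, 136656 and 174606 TPM, and Gm10800 had 1712, 34301 and 35533 TPM. By mean TPM the first 6 nuclear protein-coding genes, predicted names such as Gm10800 left out, were Krt10, B2m, Eef1a1, Krt77, Krtdap and Krt5, followed by Dmkn, Perp, Actb and Hspb1. B2m encodes the light chain of MHC class I, Eef1a1 a translation factor, Krtdap and Dmkn secreted proteins of differentiating keratinocytes, Perp a desmosomal membrane protein, Actb cytoplasmic actin and Hspb1 a small heat shock protein. B2m had 5808, 5421 and 6838 TPM and Krtdap 5327, 4159 and 3860 TPM. Both differed little between libraries beside Actb, which had 4900, 3525 and 991 TPM.

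**Figure D2:**
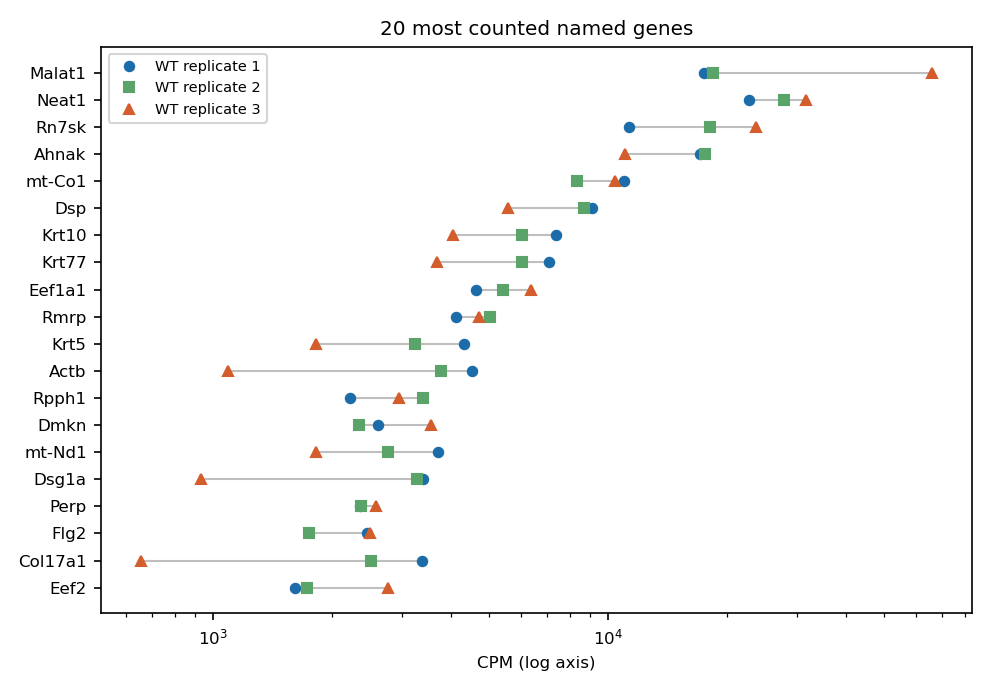
CPM of the 20 most counted genes in each WT library, predicted names left out, on a log axis. Circles, squares and triangles are WT replicates 1, 2 and 3; Malat1 is the topmost gene and has 66140 CPM in replicate 3, and Actb, Dsg1a and Col17a1 are the genes whose triangles lie farthest to the left of their other symbols.

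The 7 marker genes of the tissue were all present, and 6 of them encode keratins. Krt5 (chromosome 15, 101707070 to 101712891, GRCm38) had 4320, 3240 and 1819 CPM, which is 3126 ± 1254 (SD, n = 3). Its partner Krt14 (chromosome 11, 100203162 to 100207548) had 2169, 1902 and 653 CPM. Both basal keratins were lowest in replicate 3, where Krt14 lay more than 2-fold below both other libraries and Krt5 did not. Krt10 (chromosome 11, 99385254 to 99389364) had 7356, 6053 and 4047 CPM, and its partner Krt1 (chromosome 15, 101845428 to 101850786) had 2226, 1820 and 392. The spinous pair thus kept less of Krt1 than of Krt10 in replicate 3. Krt15 (chromosome 11, 100131758 to 100135928), a keratin of basal cells and of the follicle bulge, had 1055, 704 and 244 CPM. Krt79 (chromosome 15, 101929332 to 101940324), a keratin of the follicle opening and the sebaceous duct, had 159, 108 and 121 CPM, and its libraries lay close together. Cd207 (chromosome 6, 83671215 to 83677857), which encodes langerin and defines Langerhans cells, had 27.1, 34.7 and 36.5 CPM from 496, 527 and 473 counts.

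Per length, the keratins were dominated by Krt10 and by Krt77, not by Krt1. Krt10 had 10116, 7176 and 4668 TPM, and Krt77, a type II keratin of differentiated epidermis, 7011, 5167 and 3068 TPM. Krt1 had 2647, 1866 and 391 TPM, below Krt77 in every library. Krt77 made up 43.4% of the summed TPM of the 26 type II keratin genes, Krt5 31.6% and Krt1 12.3%, while Krt10 made up 56.5% of the 28 type I genes and Krt14 17.9%. The ratio of Krt10 to Krt77 in TPM was 1.44, 1.39 and 1.52, or 1.45 ± 0.0666 (SD, n = 3). That ratio moved little across libraries, whereas the ratio of Krt10 to Krt1 was 3.82 and 3.85 in replicates 1 and 2 and 11.9 in replicate 3, and that of Krt14 to Krt5 was 0.625, 0.731 and 0.448. Krt2, a late suprabasal keratin, had only 5.03, 6.13 and 1.85 CPM. Krt80, a keratin of maturing cells, had 1433, 971 and 621 TPM. In counts, type II keratins took 1.48%, 1.20% and 0.685% of each library and type I keratins 1.13%, 0.920% and 0.735%. Close paralogs can share reads, and how such reads were counted is not stated, so single members of near-identical families are uncertain.

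**Figure D3:**
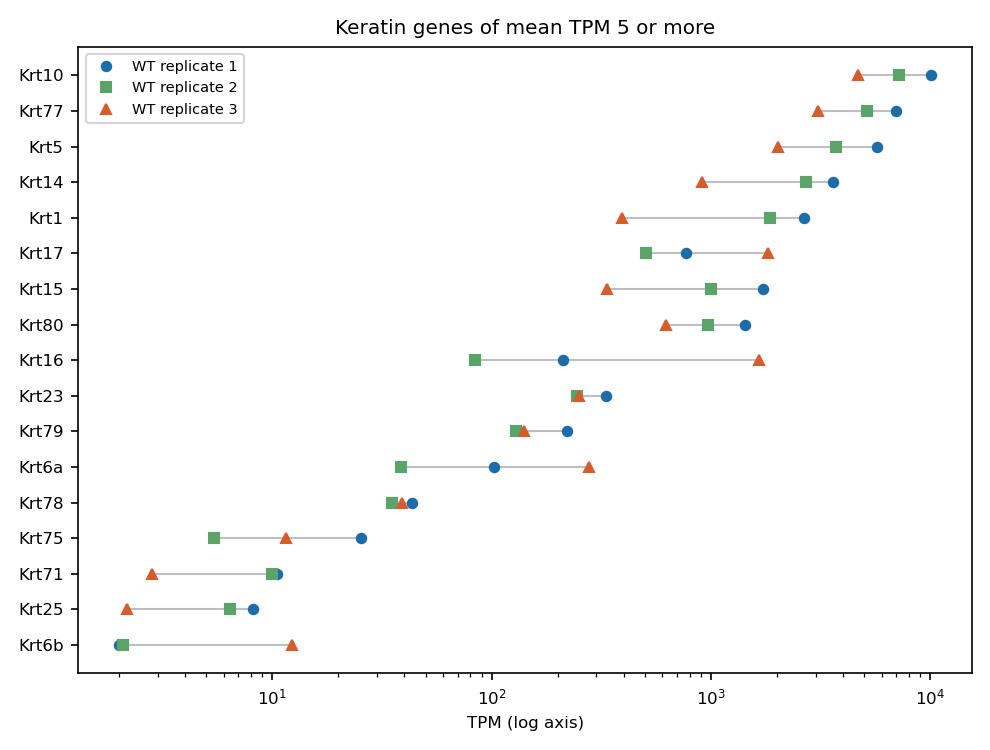
TPM of the keratin genes with a mean of 5 TPM or more in each WT library, on a log axis. Circles, squares and triangles are WT replicates 1, 2 and 3 and grey lines join the lowest and the highest library; Krt10 and Krt77 lead, and Krt16, Krt6a, Krt6b and Krt17 are the genes whose triangles lie to the right of both other symbols by more than 2-fold.

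Basal keratinocyte genes were abundant in replicates 1 and 2 and lower in replicate 3. The 20 genes of the basal list summed to 20954, 16983 and 7699 CPM. Of its 19 members at 10 CPM or more, 12 lay at least 2-fold below both other libraries in replicate 3 (10 with DESeq2 size factors) and 1 above, beside 12.5% and 4.05% of all genes. The median member had a log2 ratio of -1.57 in replicate 3, against -0.21 for all genes. Col17a1, the transmembrane collagen of hemidesmosomes, had 3376, 2506 and 655 CPM, and it made up 82.3% of the summed TPM of the 44 collagen genes. Itga6 and Itgb4, the integrin pair that anchors basal cells to laminin, had 918, 1074 and 292 CPM and 448, 367 and 107 CPM. Trp63, the master transcription factor of stratified epithelia, had 1057, 1313 and 499 CPM. Thbs1, which encodes the matrix protein thrombospondin 1, showed the widest gap of the list, with 2628, 1662 and 187 CPM. The exception was Igfbp3, an insulin-like growth factor binding protein, which was highest in replicate 3 at 583, 418 and 1753 CPM. In bulk tissue a smaller number of cells of a type and less RNA per cell cannot be told apart.

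Spinous keratinocyte genes varied less than basal genes. The 19 genes summed to 32990, 29468 and 23575 CPM, also the highest sum of the 6 layer lists in TPM in every library. The median member had a log2 ratio of -0.48 in replicate 3, against -0.21 for all genes. Of the 18 members at 10 CPM or more, 2 were 2-fold lower in replicate 3 and 0 higher, beside 12.5% and 4.05% of all genes. Those 2 were Krt1 and Mt4, a metallothionein of stratified epithelium at 26.0, 25.4 and 2.39 CPM. Perp had 2357, 2359 and 2580 CPM, Krtdap 1244, 1127 and 1075, and Dmkn 2607, 2341 and 3547. These 3 stayed within 2-fold across the libraries. Jup and Pkp1, which encode the desmosomal plaque proteins plakoglobin and plakophilin 1, had 2493, 1902 and 1405 CPM and 2102, 1972 and 1162 CPM. Sbsn, the secreted protein suprabasin, was highest in replicate 3, at 1090, 852 and 1926 CPM. The ratio of the spinous to the basal sum in counts was 1.57, 1.74 and 3.06.

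Granular layer genes ran the other way. All 22 members were at 1 CPM or more in every library, and they summed to 10597, 9568 and 16342 CPM. In replicate 3, 5 of 22 were at least 2-fold above both other libraries and 1 was below, beside 4.05% and 12.5% of all genes, with a median log2 ratio of 0.43. Asprv1, the retroviral-like protease that processes filaggrin, had 657, 648 and 3104 CPM. Flg, the filaggrin gene whose product bundles keratin and feeds natural moisturising factor, had 314, 210 and 1048 CPM. Its relative Flg2 was the more counted gene at 2445, 1748 and 2496 CPM, and its libraries overlapped. Lor, the loricrin gene and the main building block of the cornified envelope, had 683, 451 and 928 CPM, with replicate 3 highest but within 2-fold of replicate 1. Klk7, a protease that cuts corneodesmosomes, had 379, 429 and 902 CPM, and Cdsn, the corneodesmosin it cuts, 1227, 1105 and 1990 CPM. Spink5, which encodes the inhibitor of these proteases, had 1122, 1109 and 943 CPM, and Abca12, the lipid transporter of lamellar granules, 1494, 1574 and 1829 CPM. For these last genes the libraries lay close together. The ratio of the granular to the basal sum was 0.506, 0.563 and 2.12 in counts, so only replicate 3 had more counts in granular than in basal genes.

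The late cornified envelope genes, which encode small envelope proteins of the outermost living cells, shifted further than the granular genes. The 24 members summed to 3099, 2361 and 5820 CPM. In replicate 3, 10 of the 18 at 10 CPM or more were at least 2-fold above both other libraries and 0 below, beside 4.05% and 12.5% of all genes. The median log2 ratio was 1.40, against 0.43 for the granular list and -0.21 for all genes. Crct1, a cysteine-rich protein gene of the same cluster, had 284, 296 and 764 CPM, Lce1b 143, 86.4 and 427, and Lce1d 69.3, 39.6 and 307. Lce1m did not follow them, with 385, 333 and 300 CPM. Lce3c, from a subgroup linked with barrier repair, had 3.33, 4.81 and 70.9 CPM, and reached a mean of 10 CPM only through replicate 3.

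Many of these genes are neighbours in the epidermal differentiation complex of chromosome 3. Between 92080271 and 93399442 (GRCm38), a stretch chosen after its values were seen and bounded by the outermost genes of the Sprr, Lce, filaggrin, loricrin and involucrin groups, lie 81 genes in the files. Of the 35 at 10 CPM or more, 23 were at least 2-fold above both other libraries in replicate 3 and 0 were below (24 and 0 with DESeq2 size factors), beside 4.05% and 12.5% of all genes. Some of the 35, such as Rptn, Sprr1b and Sprr2h, reached that mean only through replicate 3, so their calls carry little weight. With all 81 genes and no such filter, the stretch took 0.756%, 0.566% and 1.54% of counts. Rptn, a filaggrin relative called repetin, had 4.05, 1.45 and 314 CPM, and was 77.7-fold above the nearer of the other libraries. Sprr1a, a small proline-rich envelope precursor, had 292, 227 and 2517 CPM and by itself made up 85.7% of the summed TPM of the 15 Sprr genes. Sprr1b had 9.51, 3.43 and 180 CPM and Sprr2h 8.58, 8.44 and 180 CPM. Ivl, the involucrin gene in the same stretch, did not share this pattern, with 168, 126 and 160 CPM.

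**Figure D4:**
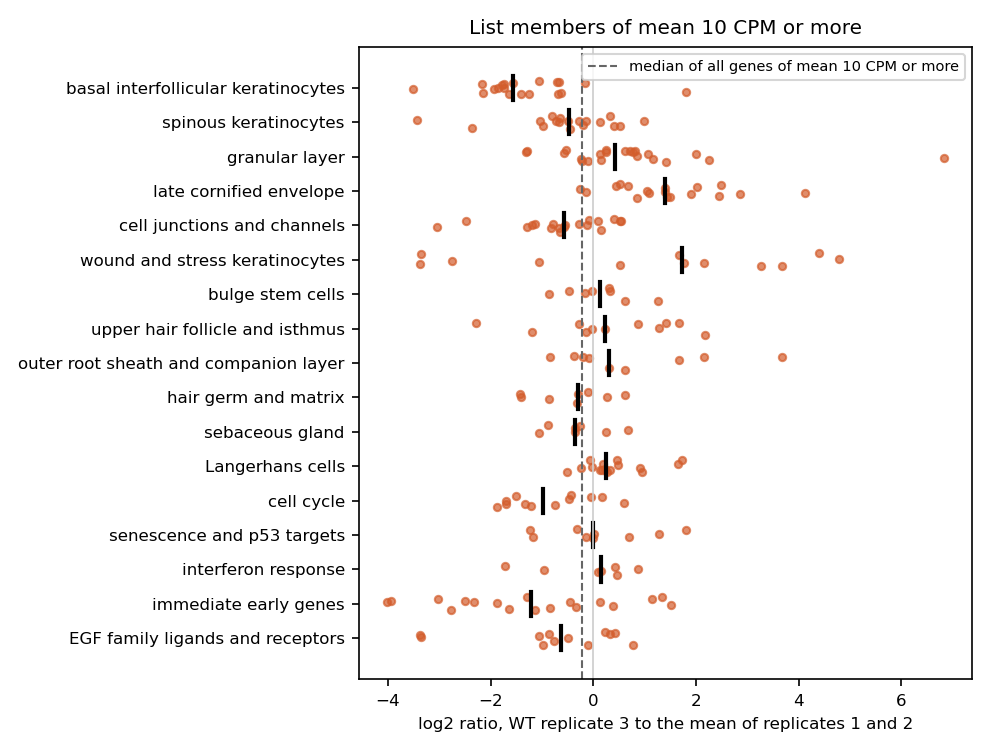
Log2 ratio of WT replicate 3 to the mean of WT replicates 1 and 2 for each list member with a mean of 10 CPM or more over all libraries. Each point is a gene and each black bar the median of its list; the dashed line is the median of all 8373 such genes at -0.21, and the bars of the wound and late cornified envelope lists lie at 1.72 and 1.40, that of the basal list at -1.57.

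The sequence just before the start of these genes is shown because the hexamer TATAAA, the core of the TATA box that many tissue-restricted genes carry, was unevenly spread over the lists. The 50 bases upstream of the RefSeq start were read on the gene's strand from RefSeq on GRCm38.p6, for starts within 100 bases of the gene's own 5′ end. Of 12369 protein-coding genes with such a promoter, 468 (3.78%) held TATAAA on the sense strand and 90 (0.728%) on the other strand. Among genes at 10 CPM or more it was 1.64%. In the wound list 8 of 11 promoters held it, in the granular list 5 of 18, in the spinous list 3 of 12, in the late cornified envelope list 3 of 21, and in the basal and Langerhans lists 0 of 7 and 0 of 11. Of the 100 named nuclear protein-coding genes highest in TPM, 10 of the 64 with such a promoter held it. Among the genes 2-fold above in replicate 3 it was in 11 of 184 (5.98%), and among those below in 12 of 601 (2.00%). These are descriptions of small sets whose members include close relatives such as the Sprr genes. Only the exact hexamer was searched for, so close variants, such as that in the Krt77 sequence, were not counted. The first 6 sequences below hold the hexamer, in capitals, and the last 4, from a pair of abundant keratins, the hemidesmosome collagen and langerin, do not.
Krt10 (chr11:99389365-99389414, minus strand): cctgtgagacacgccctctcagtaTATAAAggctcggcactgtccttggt
Lor (chr3:92083143-92083192, minus strand): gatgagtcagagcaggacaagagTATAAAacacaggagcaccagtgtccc
Sprr1a (chr3:92485882-92485931, minus strand): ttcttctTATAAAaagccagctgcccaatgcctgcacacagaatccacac
Sprr1b (chr3:92438780-92438829, minus strand): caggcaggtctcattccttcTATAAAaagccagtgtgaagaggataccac
Rptn (chr3:93393649-93393698, plus strand): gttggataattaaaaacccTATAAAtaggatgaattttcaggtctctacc
Areg (chr5:91139549-91139598, plus strand): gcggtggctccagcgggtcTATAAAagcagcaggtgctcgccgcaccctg
Krt5 (chr15:101712906-101712955, minus strand): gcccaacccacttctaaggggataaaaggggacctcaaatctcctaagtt
Krt77 (chr15:101869706-101869755, minus strand): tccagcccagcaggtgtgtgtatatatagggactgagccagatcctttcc
Col17a1 (chr19:47692043-47692092, minus strand): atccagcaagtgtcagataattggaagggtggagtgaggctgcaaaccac
Cd207 (chr6:83677858-83677907, minus strand): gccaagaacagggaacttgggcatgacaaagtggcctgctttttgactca

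The hexamer began 26 bases before the start of Krt10, 27 before Lor, 43 before Sprr1a, 30 before Sprr1b and 31 before both Rptn and Areg. Among the genes shown, those with the hexamer went both ways. Sprr1a, Sprr1b and Rptn were far higher in replicate 3, Krt10 was lowest there, and Areg was lower still in relation to the other libraries.

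Genes that keratinocytes switch on in wounds and under stress were mixed in replicate 3, with more members higher than lower. The 20 members summed to 2348, 2370 and 6091 CPM. Of the 12 at 10 CPM or more, 7 were 2-fold above in replicate 3 and 3 below, beside 4.05% and 12.5% of all genes, with a median log2 ratio of 1.72. Some of the 12, such as Sprr1b and Sprr2h, reached a mean of 10 CPM only through replicate 3. Krt16, the type I keratin of activated epidermis, had 113, 52.3 and 1067 CPM, and its usual partner Krt6a 79.5, 34.9 and 257 CPM. Krt17, a keratin of wounds and of follicle sheaths, had 412, 314 and 1154 CPM. All 3 keratins were highest in replicate 3, and the TPM ratio of Krt16 to Krt14 was 0.0588, 0.0309 and 1.83. The 3 members that were lower in replicate 3 were Fosl1, an AP-1 transcription factor gene at 404, 287 and 51.2 CPM, and the EGF receptor ligands Hbegf and Areg. Krt16, Krt6a and Krt17 also line the outer root sheath and companion layer of the follicle, so they sit in that list too.

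Junction and barrier genes were mixed. The junction list summed to 13905, 12340 and 8835 CPM, of which the keratin gene Krt77, counted in this list, gave 7066, 6041 and 3687. In replicate 3, 4 of 19 members were 2-fold lower and 0 higher, beside 12.5% and 4.05% of all genes. The median log2 ratio was -0.58, against -0.21 for all genes. Cdh1, the E-cadherin gene of adherens junctions, had 1220, 1250 and 1132 CPM, and Cldn1, the claudin that seals epidermal tight junctions, 674, 650 and 703 CPM. The 33 claudin genes took 0.103% ± 0.00581 of counts (SD, n = 3), with Cldn1 making up 53% and Cldn4 39.8% of their summed TPM. Desmosomal genes took 2.5%, 2.35% and 1.59% of counts, and Dsg1a, a cadherin of the upper layers, had 3401, 3286 and 929 CPM. The lipoxygenase and ceramide enzyme genes that build the lipid barrier took 0.50% ± 0.0497 of counts, with Elovl4, an enzyme of very long chain fatty acids, at 587, 543 and 487 CPM. Connexins were lower in replicate 3, at 0.0592%, 0.0579% and 0.0258% of counts. Gjb2, a connexin gene that activated epidermis makes, did not follow the family, with 31.0, 30.1 and 43.6 CPM.

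In summed TPM, the upper follicle and outer root sheath lists were the highest of the follicle lists and the hair shaft keratins the lowest, in every library. The 14 genes of the upper follicle and isthmus were all at 1 CPM or more in every library and summed to 1663, 1169 and 2248 CPM, and without members of other lists to 971 ± 195 (SD, n = 3). Plet1, a surface protein gene of the junctional zone and isthmus, had 525, 255 and 323 CPM, and Lrig1, a brake on EGF receptors in stem cells there, 94.0, 86.4 and 105. Defb6, a beta-defensin gene, had 77.0, 45.4 and 59.9 CPM, and its TPM was 71.2% of that of all 42 beta-defensin genes. Replicate 3 lay between the others or beside them for these genes. Lgr6, a stem cell receptor gene of the isthmus, differed more, with 116, 106 and 22.7 CPM, and Gata6, a regulator of the duct, with 6.23, 4.88 and 25.2. Of the 11 members at 10 CPM or more, 4 were 2-fold above in replicate 3 and 2 below, beside 4.05% and 12.5% of all genes. Gata6 reached that mean level only through replicate 3. The outer root sheath and companion layer list summed to 768, 493 and 2602 CPM. Most of this was Krt17, Krt16 and Krt6a in every library, and nearly all in replicate 3. These keratins are in the wound list too, and Krt17 is also in the upper follicle list. The high place of both follicle lists thus rests in part on shared genes. Krt75, the defining keratin of the outer root sheath list, had 28.4, 7.05 and 15.4 CPM.

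Bulge stem cell genes were present at low levels. Of 19 genes 16 were at 1 CPM or more in every library, and the list summed to 482, 291 and 347 CPM. In replicate 3, 0 of 8 members were 2-fold above or below, beside 4.05% and 12.5% of all genes. Sox9, a transcription factor of bulge and outer root sheath, had 81.6, 37.9 and 53.3 CPM, and Nfatc1, which holds bulge cells quiet, 147, 88.1 and 84.5. Cd34, the surface marker of the bulge, had 4.87, 1.65 and 5.55 CPM and Lgr5, a receptor of the lower bulge and hair germ, 5.96, 5.08 and 3.39. In TPM all 4 lay below Krt15, which the interfollicular basal layer also makes, in every library.

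Hair shaft genes were mostly at or near the floor, and those of the inner root sheath and matrix were mixed. At 5 times the receptor level per kb or more in every library were 4 of 12 hair shaft keratin genes. The same held for 9 of 12 inner root sheath genes and 9 of 16 germ and matrix genes. Among the 12 hair shaft keratin genes only 1, Krt32, was at 1 CPM or more in every library, and the list summed to 9.84, 8.90 and 13.9 CPM. The 57 keratin-associated protein genes, which cross-link the shaft, took 0.00247% ± 0.000481 of counts, with Krtap3-2 at 11.1, 13.2 and 5.86 CPM as the only one at 1 CPM in all libraries. Krt71, a keratin of the inner root sheath, had 7.93, 8.70 and 2.54 CPM, and Krt25 5.58, 5.08 and 1.77. Tchh, the trichohyalin gene of the same sheath, had 19.2, 13.6 and 20.6 CPM. Gata3, which the interfollicular epidermis also uses, had 629, 512 and 999 CPM and made up most of the inner root sheath sum of 728, 598 and 1060. In the germ and matrix list, Shh, the signal of the growing follicle, had 0.0547, 0.857 and 0.925 CPM, Hoxc13, a regulator of hair keratins, 2.57, 2.83 and 1.16, and Msx2 9.02, 8.50 and 6.25. Its sum of 743, 610 and 397 CPM came largely from Ovol1 and Cux1, which are not specific to the matrix.

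Sebocyte-restricted genes were also scarce. The defining markers of the sebaceous gland list, Awat1, Elovl3, Scd3 and Mc5r, together had 7.71, 5.01 and 4.40 CPM. Scd1, a fatty acid desaturase gene, had 627, 736 and 535 CPM and Fasn, the fatty acid synthase gene, 554, 475 and 248, and these widely used lipid genes made up most of the list sum of 1670, 1699 and 1254 CPM.

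Langerhans cell genes were the clearest signal of a cell that is not a keratinocyte, with the highest summed TPM of the immune and pigment lists in every library. All 19 members were at 1 CPM or more in every library, and all 19 lay at 5 times the receptor level per kb or higher in each. They summed to 965, 1088 and 1444 CPM. Cd74, the invariant chain of MHC class II, had 240, 275 and 282 CPM, H2-Ab1, a class II chain, 95.1, 107 and 122, and Epcam, which murine Langerhans cells and some follicle keratinocytes share, 147, 115 and 148. The TPM ratio of H2-Ab1 to Cd207 was 3.26, 2.86 and 3.10, or 3.07 ± 0.204 (SD, n = 3), so these 2 genes kept nearly the same proportion. H2-Aa and H2-Eb1 spread more, with 134, 170 and 294 CPM and 66.9, 96.2 and 153 CPM. In replicate 3, 2 of 16 members were 2-fold above both other libraries and 0 below, beside 4.05% and 12.5% of all genes. Those 2 were Mfge8, a secreted bridge to dying cells, at 35.6, 38.4 and 116 CPM and Ly75, which encodes an endocytic receptor, at 13.3, 17.5 and 50.9. Ccl22, a chemokine that mature dendritic cells secrete, had 2.73, 2.37 and 115 CPM, and Ccr7, the receptor with which they leave the skin, 0.164, 0.791 and 16.8 CPM, both highest in replicate 3.

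Dendritic epidermal T cells, the gamma delta T cells of mouse epidermis, left a fainter signal. Trdc, the constant region of the T cell receptor delta chain, had 9.79, 13.7 and 6.32 CPM from few counts, and the variable segments that define this subset, Tcrg-V5 and Trdv4, had 1.69, 2.31 and 1.0 CPM and 1.37, 1.98 and 0.617 CPM. Cd3e, a signalling subunit of the receptor, had 16.2, 18.2 and 8.48 CPM. All 4 were lowest in replicate 3 and highest in replicate 2. The 22 genes summed to 142, 199 and 113 CPM, with 15 at 1 CPM or more in every library, and the ratio of the Langerhans sum to this sum was 6.82, 5.48 and 12.8. The Skint genes, which keratinocytes express and of which Skint1 is needed for these T cells to develop, were all 11 at 1 CPM or more and took 0.173%, 0.166% and 0.0594% of counts. Skint1 had 163, 187 and 102 CPM, while Skint5 had 401, 395 and 38.0 and Skint9 123, 151 and 18.4. Members of this family are related genes, and how reads shared between them were counted is not stated, so single values are uncertain.

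B cell, neutrophil and mast cell genes were near the receptor level, with at most 2 members of a list at 5 times that level per kb in every library, against 7 of 12 for alpha beta T cells and 6 of 13 for macrophages and monocytes. Alpha beta T cell genes summed to 23.5, 24.7 and 46.8 CPM, where Trac, the receptor alpha constant region, had 0.820, 2.37 and 2.00 and Cd8a 2.51, 2.90 and 10.3. B and plasma cell genes summed to 3.06, 4.55 and 11.4 CPM, neutrophil genes to 1.64, 3.23 and 7.56 and mast cell genes to 1.91, 3.89 and 6.40. Each of these sums followed the order of the receptor level, lowest in replicate 1 and highest in replicate 3. In the alpha beta T cell list most of the rise in replicate 3 came from Ccr7, named above with the dendritic cell genes. The part of the receptor level in these sums was not tested. Macrophage and monocyte genes summed to 76.3, 104 and 135 CPM, with Csf1r, which Langerhans cells also need, at 18.3, 18.3 and 20.7, Adgre1 at 7.38, 5.73 and 13.5 and Cd68, a lysosomal protein, at 5.25, 3.10 and 54.8. The complement gene C1qa, typical of dermal macrophages, had 0.437, 0.791 and 2.08 CPM.

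Pigment cells were barely visible. Pmel, the fibril protein of pigment granules, had 9.13, 13.1 and 5.17 CPM. The pigment enzymes lay lower, per length too: Dct had 1.26, 2.24 and 1.08 CPM and Tyrp1 0.437, 1.38 and 0.231. The 17 melanocyte genes summed to 80.9, 97.8 and 73.3 CPM, with 4 of them at 5 times the receptor level per kb or more in every library. Most of the sum came from Rab27a at 39.0, 40.4 and 14.1 CPM, Mitf at 17.7, 17.4 and 21.5 and Bace2 at 8.58, 10.6 and 15.0, which other cells use as well. Merkel cells, the touch cells of the basal layer, were no clearer, with a sum of 2.41, 5.34 and 18.0 CPM and the master regulator Atoh1 at 0.0547, 0.0659 and 0.308.

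Markers of tissue below the epidermis were low. Col1a1, the main collagen of dermal fibroblasts, had 15.3, 14.5 and 15.0 CPM, Col1a2 8.15, 6.99 and 8.10 and Dcn, the decorin gene, 1.69, 1.58 and 1.62. These 3 hardly differed between libraries, replicate 3 included. The fibroblast list summed to 223, 213 and 174 CPM, of which Vim, an intermediate filament gene of many cells, gave 67.1, 86.2 and 45.3. Endothelial and pericyte genes summed to 5.90, 14.0 and 34.3 CPM, striated muscle genes to 4.59, 7.71 and 21.8 and adipocyte genes to 4.26, 6.33 and 12.3, all in the order of the receptor level. Haemoglobin gene Hba-a1 had 3.72, 4.22 and 0.925 CPM. The nerve list summed to 193, 176 and 146 CPM, of which Mbp, the myelin basic protein gene, gave 135, 112 and 102. Dermal papilla genes summed to 27.8, 27.0 and 43.9 CPM, erythrocyte and platelet genes to 6.78, 6.66 and 4.78 and sweat and mammary gland genes to 0.437, 2.18 and 5.63.

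**Figure D5:**
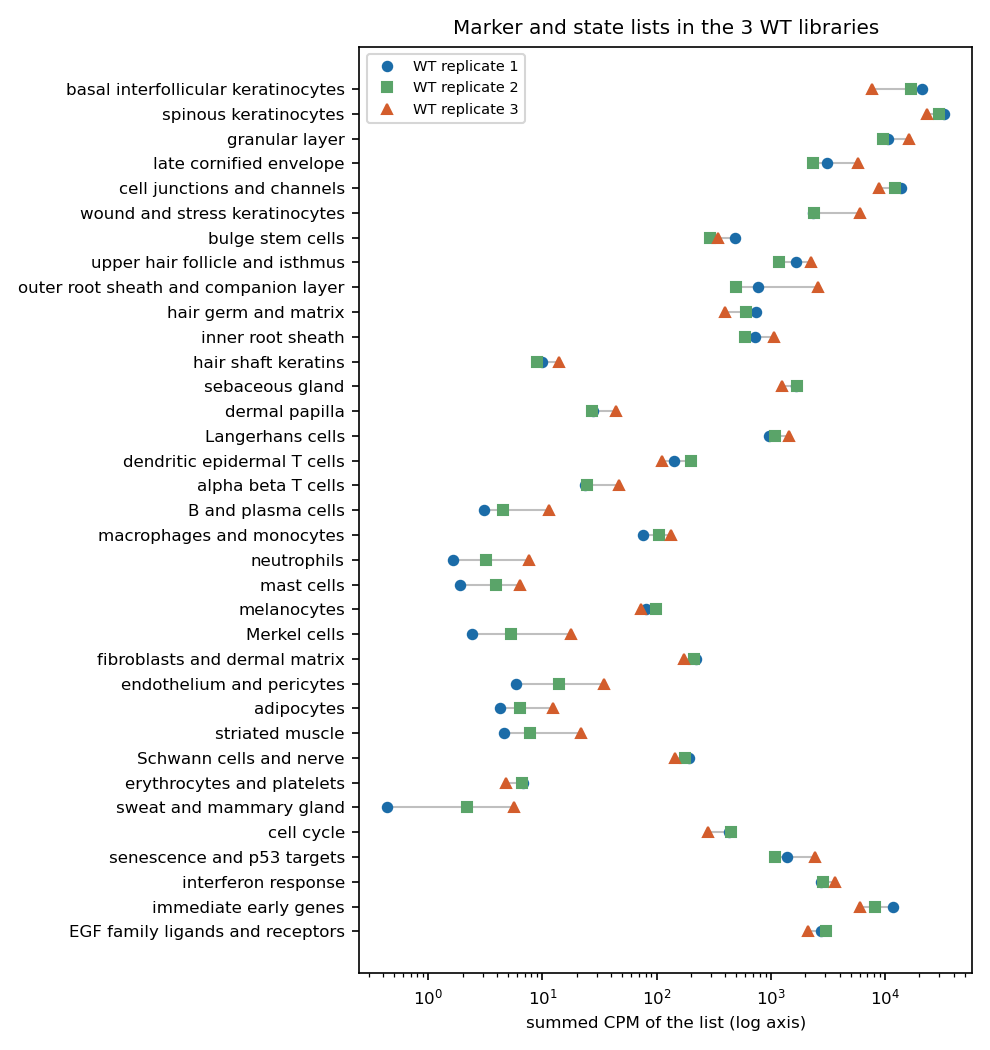
Summed CPM of each marker or state list in each WT library, on a log axis. Circles, squares and triangles are WT replicates 1, 2 and 3; the keratinocyte layer lists lie to the right, up to 32990 CPM for spinous genes, Langerhans genes near 1000 CPM, and B cell, neutrophil, mast cell, Merkel cell and gland lists to the left, where the triangles are the highest symbols.

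Proliferation was measurable at a modest level. Of 30 cell cycle genes 29 were at 1 CPM or more in every library, and they summed to 430, 453 and 281 CPM. Mki67, which marks cycling cells, had 71.4, 101 and 62.1 CPM and Top2a 28.3, 44.1 and 26.9, with replicate 3 lowest by little. The replication genes Pcna and Mcm6 differed more, with 51.7, 49.0 and 15.5 CPM and 45.0, 36.0 and 14.2 CPM. Of the 12 members at 10 CPM or more, 5 were 2-fold below both others in replicate 3 (4 with DESeq2 size factors) and 0 above, beside 12.5% of all genes below. The senescence and p53 list summed to 1384, 1083 and 2423 CPM, of which Igfbp3, named above, gave most in replicate 3. In that list Cdkn1a, the p21 cell cycle inhibitor gene, had 407, 345 and 301 CPM and Cdkn2b, the p15 inhibitor gene, 10.9, 11.0 and 26.8. Cdkn2a, the p16 gene often used as a mark of senescence, had 0, 5 and 4 counts, and the 0 of replicate 1 allows up to 3 counts. Mdm2 and Ccng1, targets of p53, were steady at 142, 127 and 136 CPM and 52.7, 49.9 and 51.0 CPM.

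Immediate early genes, which respond within minutes to growth factors and stress, were high in replicates 1 and 2. The 18 genes summed to 11830, 8205 and 6094 CPM. In replicate 3, 9 of 18 were 2-fold below both other libraries and 1 above, beside 12.5% and 4.05% of all genes, with a median log2 ratio of -1.21. Fos had 1074, 662 and 56.3 CPM, Fosb 1462, 682 and 66.4, and Egr1 1880, 880 and 169. These transcription factor genes were highest in replicate 1 and lowest in replicate 3. The heat shock gene Hspa1b had the opposite order, 622, 1017 and 1820 CPM, and Hspa1a was 2-fold above in replicate 3 with 236, 472 and 1006. Jun, another AP-1 gene, held near the same level with 412, 277 and 379 CPM.

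Ligands and receptors of the EGF family, to which the gene targeted in the series belongs, were nearly all expressed. Of 15 genes 13 were at 1 CPM or more in every library, and they summed to 2743, 3050 and 2133 CPM. Tgfa, the transforming growth factor alpha gene, had 90.3, 84.8 and 110 CPM, and its libraries lay within 1.5-fold. By mean TPM the first ligand was Ereg, the epiregulin gene, with 544, 751 and 285 TPM, ahead of Epgn (epigen) with 112, 154 and 208. Hbegf had 146, 117 and 11.5 TPM and Areg (amphiregulin) 157, 67.7 and 9.59, so both were above Tgfa, at 40.5, 32.7 and 41.4 TPM, in replicates 1 and 2 and below it in replicate 3. Among receptors Erbb3 had 183, 130 and 131 TPM, Erbb2 148, 98.0 and 60.4 and Egfr 96.9, 82.4 and 108. The order of Egfr and Erbb2 changed with the library. In replicate 3, Hbegf and Areg were the 2 of 12 members 2-fold below both other libraries, and 0 were above. Over all genes the shares were 12.5% below and 4.05% above.

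The genes with the widest gap between replicate 3 and the nearer of the other libraries were chosen by that gap and are values only. Highest was Cyp1a1, a detoxifying enzyme gene driven by the aryl hydrocarbon receptor, with 0.328, 0.330 and 57.0 CPM, followed by Rptn, Sprr2f at 0, 0.593 and 31.2, and Ccl22. Elf3, an epithelial transcription factor gene linked with differentiation, had 2.13, 2.44 and 33.2 CPM. Lowest were Aadacl2 with 37.1, 30.1 and 0.694 CPM and Tgm7, a transglutaminase gene, with 31.8, 26.7 and 1.39. Hlf, a transcription factor of the circadian output family, had 171, 148 and 13.0 CPM. In each of these the values of replicates 1 and 2 lay close together, apart from Sprr2f and Rptn.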

How the data were processed

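The 3 WT libraries were grouped by the genotype in the sample labels and numbered in order of deposition. Per the labels' protocols, total RNA was taken with Trizol and a column with DNase, and NEBNext Ultra II libraries were read in pairs on a NovaSeq. The authors deposited whole-number read counts per gene, not normalized. The submitters' processing notes list Subread 1.5.2 with featureCounts, STAR 2.5.2b and Trimmomatic 0.36, and name GRCh38 and GRCm38 as builds. Per the file headers, rows are 49315 mouse Ensembl genes with exon coordinates and lengths, of which 49056 were found in GENCODE M21 (GRCm38) and 48970 have a symbol in a reference table. No source states the strand or multi-mapping settings, so overlapping and antisense genes were not told apart.

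CPM divides counts by the library total, and TPM by exon length first. With 1 group no test was made and there are no p-values. Instead, genes with a mean of at least 10 CPM over the 3 libraries were called 2-fold above or below both other libraries. The biological coefficient of variation came from edgeR 4.0.16 (R 4.3.3, TMM, filterByExpr), checked on simulated data, and DESeq2 1.42.0 gave alternative size factors and dispersion. Tables were made in Python 3.11.15. Binomial intervals are left out, because counting error is the only error they hold. Other scales, thresholds, filters, a subtraction of the receptor level and leaving out each library were alternatives.

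The 35 gene lists, 26 families and the rule for named genes were chosen with earlier results of these data known, and some family patterns were corrected after the files were read. The rule names the 20 most counted genes, the 7 given markers, defining markers and up to 6 others per list, up to 4 genes per family, 8 protein-coding genes per library and direction by their gap to the nearer library, and Malat1, Neat1, Gm10800, Ddx3y and Xist. Areg, Cdkn2a, Fosb, Gata6, Hbegf, Itgb4, Ivl, Jun, Jup, Krt2, Lrig1, Ly75, Skint1, Tgfa and Top2a are named outside it, after their values were seen. Krt85 and Dcd had no row under these symbols. Some members that the rule takes are not reported here.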

Additional observations from a re-analysis of the deposited data

How the results depend on the processing

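Over 91 results, 611 of 638 alternative values stayed within the spread between libraries (for counts of genes, within 1.5 times), and 27 moved beyond it; of these, 17 came from counting per length and 5 from leaving out members shared with other lists. That spread includes the gap of replicate 3, and leaving out 1 of 3 libraries cannot take a mean beyond it. The count of 611 is therefore no measure of how far results depend on a single library. Genes detected in WT numbered 16568 on average at 1 CPM and 10467 at 5 CPM. The share of counts in the 100 most counted genes was 30.1%, and 52.2% per length. It was 26.9% without Malat1, the mitochondrial genome and the genes annotated as ribosomal RNA. Gm26917 and Gm42418, annotated as long intergenic noncoding RNAs, were not removed there. Type I keratins took 0.929% of counts and 1.27% of TPM. The upper hair follicle list summed to 1693 CPM, and to 971 without members of other lists. The biological coefficient of variation of 36.7% was 70.2% with no filter on low counts, and ran from 19.8% without replicate 3 to 43.2% without replicate 2. No paired analysis was possible because a single group was analysed and its library numbers pair with no other samples. Depth limits the rare lists most: a level of 1 CPM rests on under 20 counts in each library.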

Other observations

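Families outside the layer and cell type lists also differed between libraries. The 67 replication-dependent histone genes, whose RNAs are made in S phase, took 0.0369%, 0.0615% and 0.122% of counts, highest in replicate 3. Pcna and Mcm6 were lowest there. Lysosomal cathepsin genes took 0.0699%, 0.0647% and 0.137%, and Ctsl, a cathepsin of keratinocyte differentiation, had 105, 82.9 and 415 CPM. Kallikrein genes took 0.0679%, 0.0760% and 0.146%, and cytosolic ribosomal protein genes 1.66%, 1.99% and 2.64%. MHC class I genes took 0.166%, 0.157% and 0.256% of counts. Serpin genes ran the other way, with 0.526%, 0.372% and 0.220%, led by Serpinb2, which encodes plasminogen activator inhibitor 2, at 3277, 1654 and 466 CPM. Gasdermin genes were even, at 0.00739%, 0.00675% and 0.00831% of counts, and Gsdma made up 77.6% of their TPM.

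Interferon response genes summed to 2765, 2889 and 3658 CPM, most of it from B2m at 1718, 1860 and 2412 CPM, and 10 of the 20 were at 1 CPM or more in every library. Usp18, an interferon-induced protease gene, had 25.9, 26.6 and 7.94 CPM. It was the 1 of 7 members at 10 CPM or more that lay 2-fold below both other libraries in replicate 3, beside 12.5% of all genes.

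Single genes set replicates 1 and 2 apart from each other. Rufy4, which encodes an autophagy protein of dendritic cells, had 289, 2.37 and 360 CPM, so that replicate 2 was 122-fold below the nearer library. Gadl1, a decarboxylase gene, had 5.03, 36.1 and 3.16 CPM, and Nrg1, a neuregulin gene, 16.9, 66.2 and 21. Fkbp5, a target of the glucocorticoid receptor, had 28.2, 90.3 and 16.0 CPM. In replicate 1 the widest gap above was that of Clca3a2, at 1546, 594 and 124 CPM. Txnip, which responds to glucose, had 126, 341 and 1152 CPM, lowest in replicate 1. These genes were picked by their gaps, and the values carry no test.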
